A study of Mus musculus with 6 samples.

Results

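The 10 genes described here are mitochondrially encoded genes of the respiratory chain, chosen by name from a table of 16018 genes measured by RNAseq in mouse hearts: mt-Nd1, mt-Nd2, mt-Nd4, mt-Nd5 and mt-Nd6 of complex I, mt-Cytb of complex III, mt-Co1, mt-Co2 and mt-Co3 of complex IV, and mt-Atp6 of the ATP synthase (complex V). The choice used the gene names, and it was made with earlier results of these data known. The hearts came from 3 female NBCe1-B/C KO mice and 3 female WT mice, aged 4 to 5 weeks, so n = 3 in each group. NBCe1 is a sodium-bicarbonate cotransporter encoded by Slc4a4, and the KO mice lack its B and C variants in every tissue, on a C57BL/6J background, with WT mice bred from the same kind of heterozygous cross. The study characterized the cardiac function of these mice. It states that its data do not isolate the effect of losing NBCe1-B from the heart itself. Values are normalized counts, that is, the reads counted on a gene divided by a factor that puts the libraries on 1 scale.

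Mitochondria keep a small circular genome whose protein-coding genes all specify core subunits of the respiratory chain, while the remaining subunits are encoded in the nucleus and imported. Both strands of the circle are transcribed as long precursors, from which the tRNAs that lie between the genes are cut out to release the mRNAs, so that neighbouring genes share a transcript at the start and can still differ in the amount of mature RNA. Cardiomyocytes are densely packed with mitochondria, and mitochondrial transcripts are a large part of the RNA of the heart.

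In the reference annotation of the authors' build (GRCm38, GENCODE M21), mt-Nd6 is the 1 gene of the 10 on the minus strand (chrM:13552-14070). Its 3′ end runs into that of mt-Nd5 (chrM:11742-13565) on the other strand, and the 14 bases that the genes share are shown in capitals in the last 30 bases of each. They are shown because reads there belong to both genes unless strand is used in counting, and the strand setting is not given in the sources used here.
mt-Nd5, plus strand, chrM:13536-13565: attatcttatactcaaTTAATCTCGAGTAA
mt-Nd6, minus strand, chrM:13552-13581: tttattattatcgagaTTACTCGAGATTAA

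Of the 10 genes, 3 end in an incomplete stop codon, a single T that polyadenylation of the transcript completes. Their last 30 bases are shown, with that T in capitals, because they mark where the mature mRNAs end and their neighbours begin.
mt-Nd4, plus strand, chrM:11515-11544: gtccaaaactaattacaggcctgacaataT
mt-Co3, plus strand, chrM:9361-9390: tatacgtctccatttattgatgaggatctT
mt-Cytb, plus strand, chrM:15259-15288: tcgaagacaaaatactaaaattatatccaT

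The targeted gene was checked first. Slc4a4 had 264.0, 944.8 and 268.7 normalized counts in the libraries labelled NBCe1-B/C KO replicates 1, 2 and 3. WT replicates 1, 2 and 3 had 675.1, 822.2 and 788.8. The library labelled NBCe1-B/C KO replicate 2 therefore lay above each WT library, and the difference of each of the 10 genes is given below with and without it. The difference over all 6 libraries was -0.90 on the log2 scale (limma, adjusted p = 0.239; exact two-sided permutation p = 0.4, where the smallest p that 3 against 3 allows is 0.1), and it was -1.51 without that library (limma, adjusted p = 0.0121). The count covers all variants of the gene. Reads on genes ran from 41364857 to 49100802 per library, with all KO libraries deeper than all WT libraries. The cardiomyocyte markers fixed for the check of the tissue were listed in each library, 8 of 8.

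The 10 genes together took between 18.0% and 20.8% of all reads on genes in each library. Replicates 1, 2 and 3 of the KO group had a summed share of 20.8%, 19.1% and 18.3%, and those of the WT group 18.3%, 18.0% and 19.6%. KO replicate 1 was the highest library and WT replicate 2 the lowest, and the groups overlapped. The means were 19.4% ± 1.27 (SD, n = 3) in KO and 18.7% ± 0.856 (SD, n = 3) in WT hearts, a difference of 0.716 percentage points that was smaller than the spread within the KO group. It was 0.873 points without KO replicate 2, 0.0150 points without KO replicate 1, 1.26 points without KO replicate 3, 0.389 points without WT replicate 2 and 1.20 points without WT replicate 3. In whole hearts, fewer cells of a type and less RNA per cell cannot be told apart. Counting error is small beside this: the 95% Wilson interval of a library's share was at most 0.0121 points to either side, and such intervals cover counting error only.

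Within complex I, which takes electrons from NADH and pumps protons, mt-Nd5 had the largest difference of the 10 genes. Its normalized counts in replicates 1, 2 and 3 were 1232500, 988007 and 844338 for KO hearts, and 686998, 757569 and 802682 for WT hearts. Each KO library lay above each WT library, with KO replicate 1 the highest and KO replicate 3 just above WT replicate 3. The difference was 0.43 ± 0.197 (log2, SE), and it did not pass the test (limma, adjusted p = 0.226). Without KO replicate 2 it was 0.45 (limma, adjusted p = 0.316), and without KO replicate 1 it was 0.29 (limma, adjusted p = 0.376). DESeq2 on the recovered reads called mt-Nd5 (log2 0.45, adjusted p = 0.00703), and edgeR did not (adjusted p = 0.109).

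For mt-Nd2 (chrM:3914-4951), a membrane subunit of the same complex, the normalized counts were 673659, 595792 and 538962 in KO and 484770, 506497 and 502619 in WT replicates 1, 2 and 3. The groups did not overlap here either, and the WT libraries lay close together. The difference was 0.27 ± 0.149 (log2, SE; limma, adjusted p = 0.310), and 0.28 without KO replicate 2. DESeq2 called it (adjusted p = 0.0262), and edgeR did not (adjusted p = 0.136).

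mt-Nd4 (chrM:10167-11544), another membrane subunit, was listed at 406746, 382063 and 360126 in KO and 340885, 331786 and 343953 normalized counts in WT replicates 1, 2 and 3. These groups did not overlap, with a difference of 0.17 ± 0.122 (log2, SE; limma, adjusted p = 0.422), and 0.18 without KO replicate 2. By contrast, mt-Nd1 (chrM:2751-3707) was listed at 921457, 843804 and 780266 in KO and 808374, 816778 and 842664 in WT, groups that overlapped, with KO replicate 3 the lowest library of all. The difference of mt-Nd1 was 0.042 ± 0.164 (log2, SE; limma, adjusted p = 0.910), and 0.044 without KO replicate 2. mt-Nd6, the minus-strand gene, was listed at 211775, 239112 and 189962 in KO and 192399, 195250 and 209634 in WT. KO libraries held both its highest value (replicate 2) and its lowest (replicate 3), and the difference was 0.10 ± 0.120 (log2, SE; limma, adjusted p = 0.674), and 0.012 without KO replicate 2.

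mt-Cytb (chrM:14145-15288) encodes cytochrome b, the catalytic core of complex III, which passes electrons to cytochrome c. It was listed at 1470560, 1251540 and 1230070 normalized counts in KO and 1153610, 1161420 and 1214160 in WT replicates 1, 2 and 3. The groups did not overlap, by a narrow margin between KO replicate 3 and WT replicate 3, and the difference was 0.16 ± 0.190 (log2, SE; limma, adjusted p = 0.659). It was 0.19 without KO replicate 2 and 0.077 without KO replicate 1. As a share of all reads on genes, mt-Cytb overlapped between the groups, at 2.91% ± 0.131 in KO and 2.74% ± 0.0934 in WT (SD, n = 3).

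Complex IV, the cytochrome c oxidase, reduces oxygen to water, and mt-Co1 (chrM:5328-6872) encodes its haem-binding catalytic subunit. It was the most abundant of the 10 genes, at 5063020, 4089920 and 4013020 normalized counts in KO and 4225020, 3993340 and 4449410 in WT replicates 1, 2 and 3. The groups overlapped, with KO replicate 1 standing above the other libraries. The difference was 0.049 ± 0.302 (log2, SE; limma, adjusted p = 0.943), and 0.096 without KO replicate 2.

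The other complex IV genes and mt-Atp6, the proton channel subunit of the ATP synthase, were listed far lower. mt-Co2 (chrM:7013-7696) was at 1247.5, 1185.7 and 1114.8 in KO and 1240.6, 1132.0 and 1300.3 in WT, mt-Co3 (chrM:8607-9390) at 1459.9, 1267.4 and 1274.4 in KO and 1403.5, 1179.8 and 1287.9 in WT, and mt-Atp6 (chrM:7927-8607) at 2160.6, 1908.3 and 1826.9 in KO and 1883.9, 1721.4 and 1684.9 normalized counts in WT. For all 3 genes the groups overlapped. The differences were -0.049 ± 0.0807, 0.048 ± 0.0907 and 0.15 ± 0.0830 (log2, SE), with limma's adjusted p at 0.755, 0.790 and 0.297. Without KO replicate 2 they were -0.052, 0.084 and 0.17, and without KO replicate 1 -0.088, -0.018 and 0.084.

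**Figure D1:**
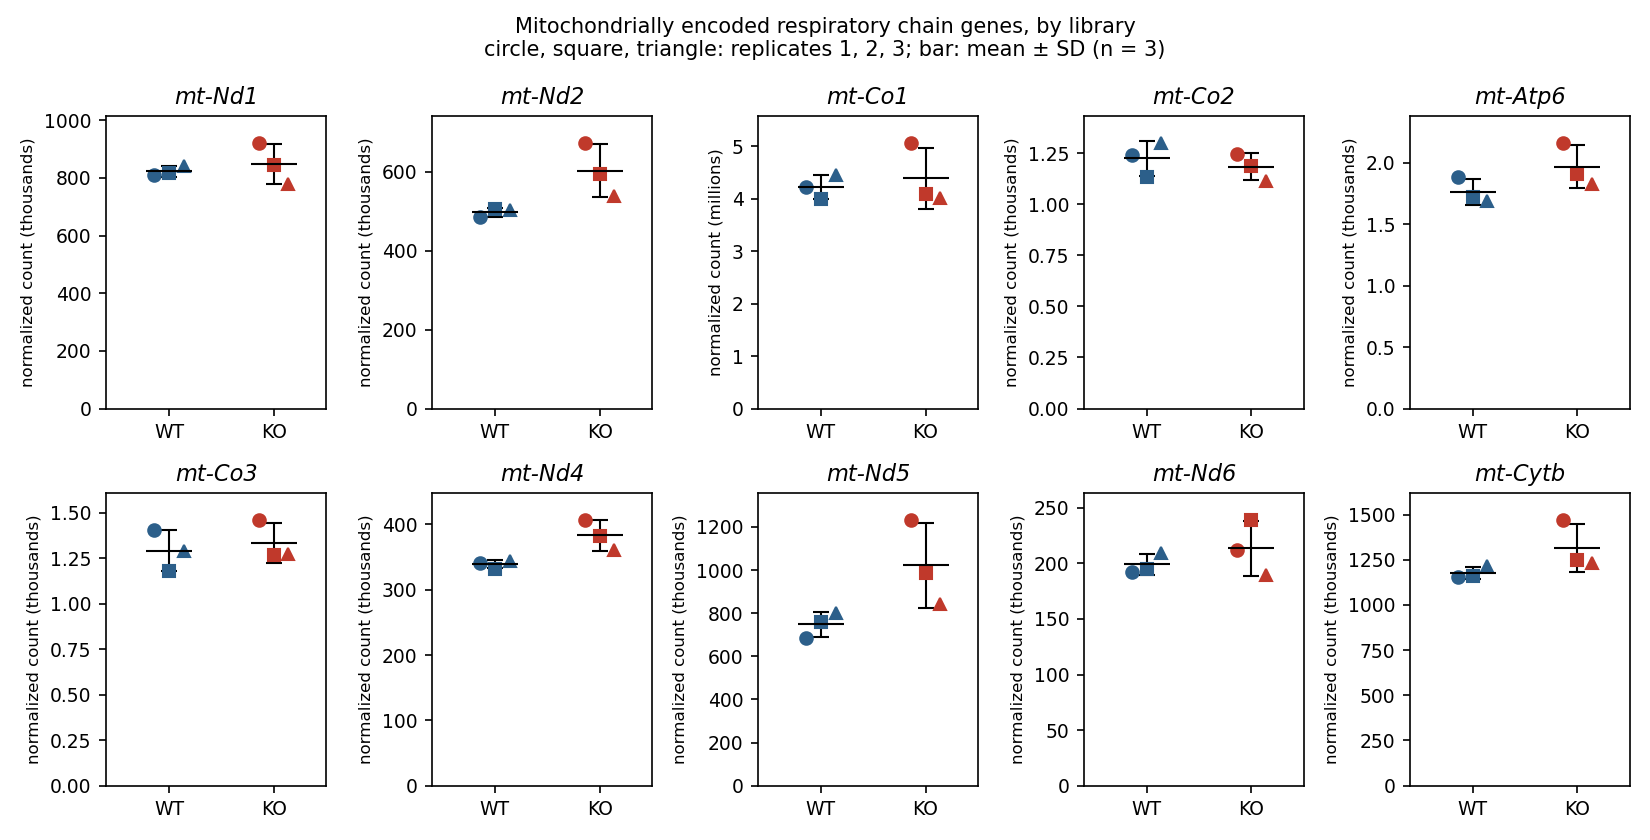
Normalized count (y axis, from 0) of each of the 10 genes in the 3 WT (blue) and 3 KO (red) libraries, in order of position on the mitochondrial chromosome, with circles, squares and triangles for replicates 1, 2 and 3 and bars for the mean ± SD. All KO points lie above all WT points for mt-Nd2, mt-Nd4, mt-Nd5 and mt-Cytb, and KO replicate 1 is the top point for 8 of the 10 genes.

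Counted together, 0 of the 10 genes passed the adjusted threshold of 0.05 by limma, as did 0% of all 16016 genes tested. At an unadjusted p under 0.05 the count was also 0 of 10, against 23.5% of all genes. That 0 depended on limma's variance trend: without the trend it was 2, mt-Nd5 and mt-Nd2, against 3212 of all 16016 genes, a similar proportion. The KO libraries all lay above the WT libraries for 4 of the 10, against 15.6% of all genes, and for 0 of the 10 did they all lie below, against 14.6%. The count of 4 was the same without KO replicate 1 and without KO replicate 2, while the share of all genes was then 18.2% and 20.7%. By edgeR, 0 of the 10 passed (0% of all genes) and 2 had an unadjusted p under 0.05 (24.0% of all genes). DESeq2 called 2 of the 10, mt-Nd5 and mt-Nd2, both higher in KO, against 8.22% of the genes to which it gave an adjusted p called in that direction and 13.2% called in either, so this call rests on the choice of count model.

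KO replicate 1 had the highest normalized count for 8 of the 10 genes. Without it, 6 of the 10 were higher in KO, against 9 of 10 with it. On the share of all reads on genes, which does not use the authors' scaling, mt-Nd2, mt-Nd4 and mt-Nd5 did not overlap between the groups (3 of 10, against 10.4% of all genes). That share for mt-Nd5 was 2.56%, 2.24% and 1.94% in KO and 1.60%, 1.76% and 1.88% in WT replicates 1, 2 and 3.

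**Figure D2:**
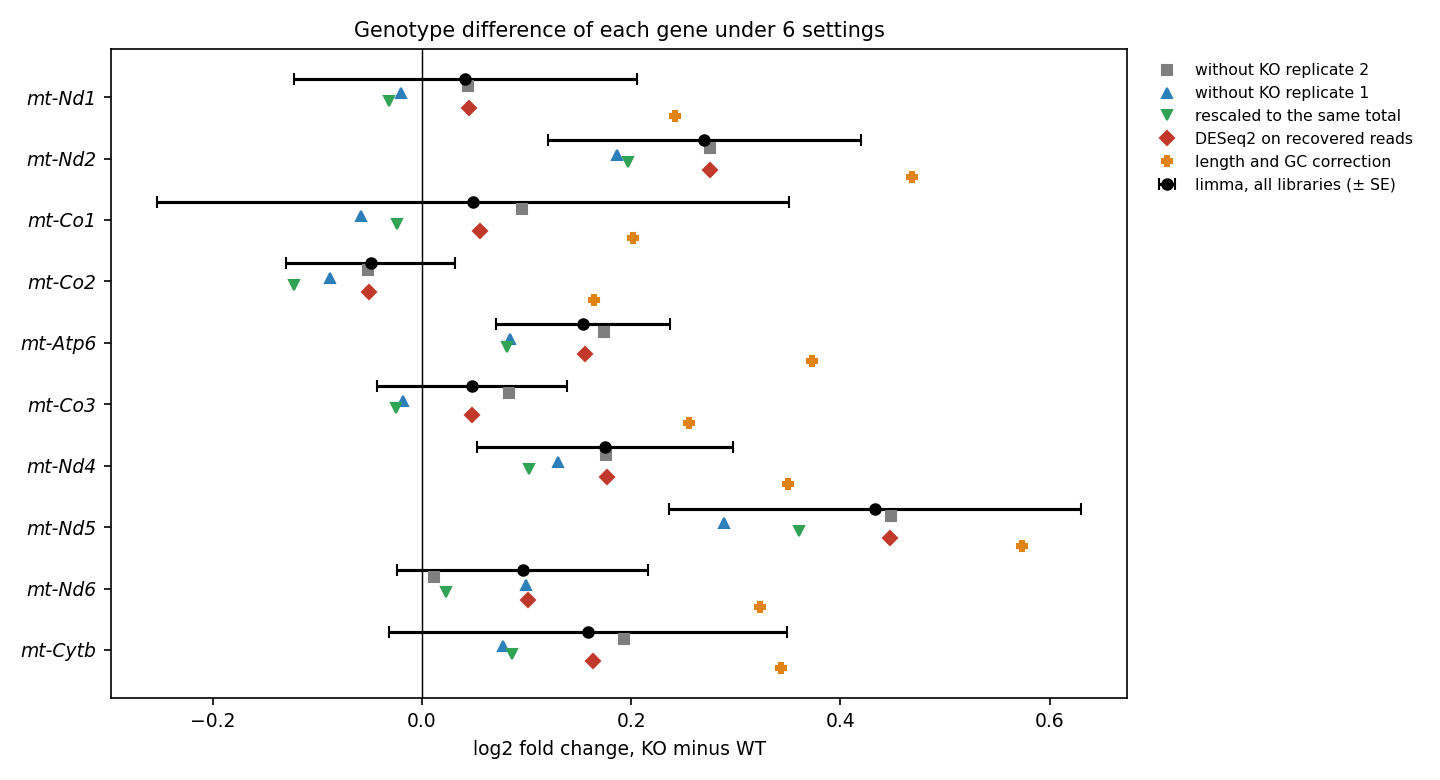
Log2 fold change, KO minus WT (x axis), of each of the 10 genes in limma with all libraries (black, with SE) and in 5 other settings (other symbols). mt-Nd5 and mt-Nd2 are right of 0 in each setting drawn, while mt-Nd1, mt-Co1 and mt-Co3 lie on both sides of it and mt-Co2 is right of 0 after the length and GC correction alone.

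Because the 10 genes are counted within the same library, their proportions to each other do not depend on any scaling between libraries. Of the reads on the 10 genes, mt-Nd5 took 12.3%, 11.8% and 10.6% in KO and 8.70%, 9.75% and 9.59% in WT replicates 1, 2 and 3. These groups did not overlap, with means of 11.6% ± 0.885 and 9.35% ± 0.567 (SD, n = 3). mt-Nd2 was likewise higher in each KO library (6.87% ± 0.196 against 6.22% ± 0.268). The difference of 2.22 points for mt-Nd5 stayed between 1.84 and 2.71 when each library was left out in turn. The share of mt-Co1 was lower in each KO library, at 50.7%, 48.7% and 50.4% against 53.5%, 51.4% and 53.2% in WT, and so was that of mt-Nd1 (9.69% ± 0.422 against 10.3% ± 0.226).

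By complex, the 5 complex I genes summed to 34.5%, 36.3% and 34.1% of these reads in KO and 31.8%, 33.6% and 32.3% in WT, groups that did not overlap. The 3 complex IV genes summed to 49.97% ± 1.07 in KO and 52.7% ± 1.12 in WT (SD, n = 3), again without overlap and in the other direction, and mt-Co1 made up nearly all of that sum. The differences of 2.41 points for complex I and -2.75 points for complex IV ran from 1.74 to 2.92 and from -3.39 to -2.14 when each library was left out in turn. Of the complex I genes, mt-Nd5 differed by 2.22 points, mt-Nd2 by 0.65, mt-Nd4 by 0.15, mt-Nd6 by -0.033 and mt-Nd1 by -0.58. The complex I sum is therefore not a shift of all 5 genes. Complex III, here mt-Cytb alone, and complex V, here mt-Atp6 alone at 0.022% of these reads, overlapped. The low levels of mt-Co2, mt-Co3 and mt-Atp6 are uncertain, as described below. Shares of a whole are bound to each other, so a higher share of 1 gene lowers the others, and no test was run on them. With 3 libraries a group, an exact permutation test could not have gone below 0.1.

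A ratio of 2 genes does not depend on the reads of the other genes. The ratios to mt-Nd1 given here share that denominator, so they are not independent of each other. The share of mt-Nd1 was itself lower in each KO library. The ratio of mt-Nd5 to mt-Nd1 reads was 1.34, 1.17 and 1.08 for KO replicates 1, 2 and 3, beside WT ratios of 0.850, 0.928 and 0.953, so mt-Nd5 exceeded mt-Nd1 in each KO library and in none of the WT libraries. The ratio of mt-Nd2 to mt-Nd1, genes that lie 206 bases apart on the same strand, was 0.709 ± 0.0204 in KO and 0.605 ± 0.0128 in WT (SD, n = 3), also without overlap. mt-Co1 over mt-Nd1 overlapped, at 5.16 ± 0.324 and 5.13 ± 0.212. These ratios were chosen after the values of the genes were seen, and no test was run on them. Reads on mt-Nd6 relative to those on the 9 genes of the other strand were 2.51% ± 0.387 in KO and 2.55% ± 0.0445 in WT, groups that overlapped, with KO replicates 1 and 2 at the extremes (2.17% and 2.93%).

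**Figure D3:**
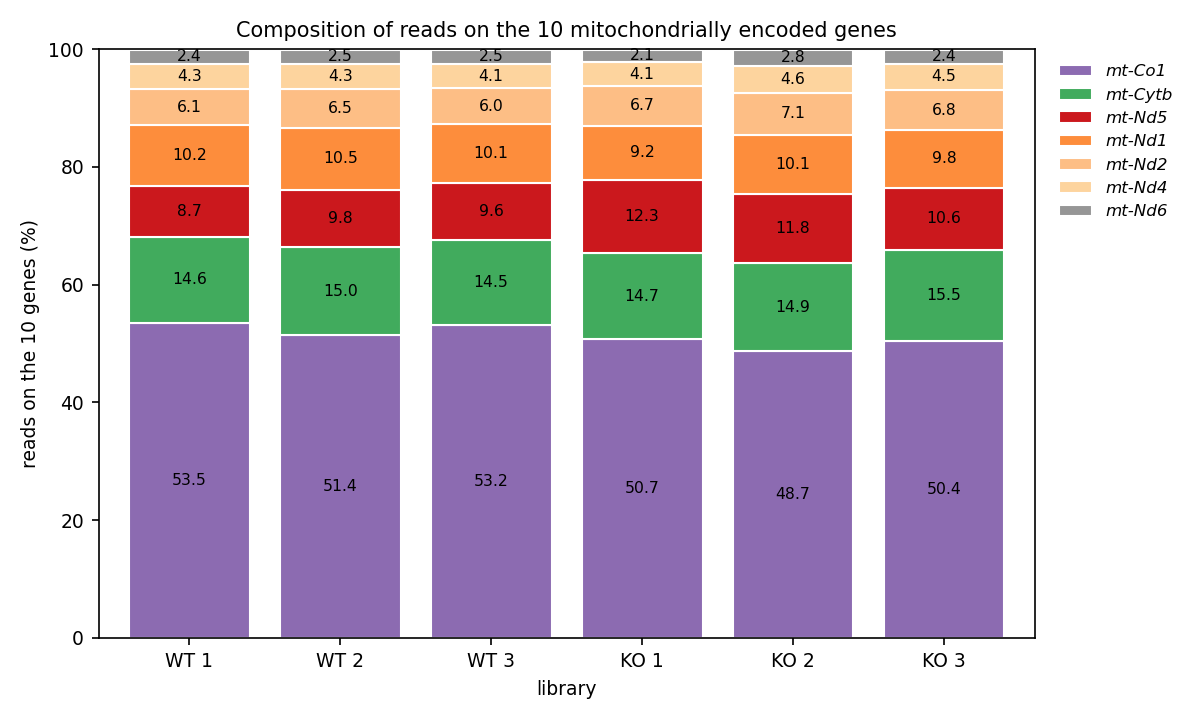
Percent of the reads on the 10 genes (y axis) taken by each of 7 genes in each library (x axis), with the percentages printed in the bars; mt-Co2, mt-Co3 and mt-Atp6 together are too small to see. The mt-Nd5 segment spans 10.6% to 12.3% in KO and 8.70% to 9.75% in WT libraries, and the mt-Co1 segment 48.7% to 50.7% and 51.4% to 53.5%.

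Set against gene length, the 10 genes fell into a high and a low group in each library. In WT hearts, mt-Co1 was listed at 2733070 ± 147603 normalized counts per kb (SD, n = 3), followed by mt-Cytb at 1028320 ± 28792, mt-Nd1 at 859567 ± 18675 and mt-Nd2 at 479732 ± 11164. Next came mt-Nd5 at 410682 ± 31967, mt-Nd6 at 383611 ± 17801 and mt-Nd4 at 245918 ± 4592. mt-Atp6, mt-Co2 and mt-Co3 followed at 2589 ± 156, 1790 ± 125 and 1646 ± 143 normalized counts per kb, so that mt-Nd4 and mt-Atp6, adjacent in this order, stood 94.97-fold apart. Neighbours in the order overlapped for mt-Nd5 and mt-Nd6 in WT, for mt-Nd2 and mt-Nd5 in KO, and for mt-Co2 and mt-Co3 in both.

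The low group coincided with the genes of the 10 that have exact nuclear copies over nearly their whole length. Each stretch of 150 bases, the read length given in the labels, was looked up among all nuclear transcripts of the annotation. For mt-Co2, mt-Atp6 and mt-Co3, 99.4%, 99.4% and 99.8% of the stretches were found there, against 59.2% for mt-Nd4, 23.6% for mt-Co1 and 0% for mt-Nd1, mt-Nd2, mt-Nd5, mt-Nd6 and mt-Cytb. The copies lie side by side on the minus strand of chromosome 1 (GRCm38, chr1:24611535-24616197) and are annotated as unprocessed pseudogenes: Gm28439 copies mt-Nd4, Gm28437 mt-Co3, Gm10925 mt-Atp6, Gm28661 mt-Co2 and Gm29216 mt-Co1. A second copy of mt-Co2, Gm13341 on chromosome 2, is 97.6% identical to it.

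The sequence at the edges of these copies is shown because it divides mt-Co1 and mt-Nd4 into a shared and an unshared part. Capitals mark the part that matches the nuclear copy without a break. In mt-Co1 the alignment with the copy starts at base 1063, so the bases from there to the substitution named next also match, in lower case. The copy of mt-Co1 begins to match without a break after the substitution A1066T (base of mt-Co1, position from 1 at the start of the gene, base of Gm29216), and the copy of mt-Nd4 ends at base 876.
mt-Co1, plus strand, chrM:6379-6408: gtggtctaaccggaaTTGTTTTATCCAACT
mt-Nd4, plus strand, chrM:11028-11057: TACTCCTCAGTTAGCcacatagcacttgtt

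A read that matches both places can be dropped, assigned to 1 of them or counted for both, and the treatment is not given in the sources used here, so the levels of mt-Co2, mt-Co3 and mt-Atp6 are uncertain and those of mt-Co1 and mt-Nd4 may rest on part of the gene. The listed means of mt-Co2, mt-Atp6 and mt-Co3 were 1.87, 2.79 and 1.94 times those of their chromosome 1 copies. Divided by the number of unshared stretches in place of length, mt-Nd4 was at 675049 ± 12605 normalized counts per 1000 such stretches in WT and mt-Co1 at 3961160 ± 213927, beside 447214 ± 34810 for mt-Nd5. This scale assumes that reads within shared stretches were not counted for the mitochondrial gene, which is not known. It also treats reads singly, although they were sequenced in pairs. mt-Co2 and mt-Atp6 have 3 unshared stretches each, and mt-Co3 has 1. These stretches are unshared because the annotated chromosome 1 copies stop at bases 681, 678 and 783 of mt-Co2, mt-Atp6 and mt-Co3. Sequence past those ends was not searched, so no level on that scale is given for them. mt-Atp8, the subunit gene that overlaps mt-Atp6 by 43 bases, was also low, at 2632 ± 161 per kb in WT. For it, 0% of stretches were found in an annotated nuclear transcript. The gene lies between mt-Co2 and mt-Atp6, and on chromosome 1 Gm10925 ends at 24614651 and Gm28661 begins at 24614885. Sequence between annotated transcripts, there and elsewhere, was not searched.

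**Figure D4:**
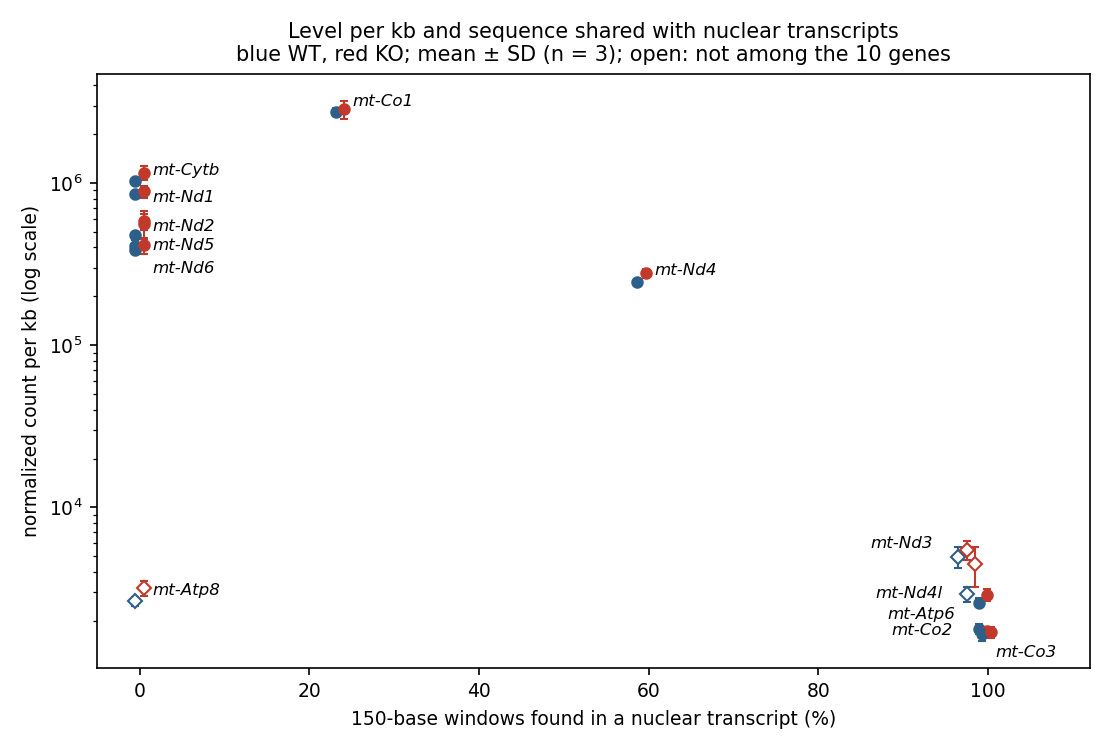
Normalized count per kb (y axis, log scale, mean ± SD, n = 3) against the percent of 150-base stretches found in a nuclear transcript (x axis) for the 10 genes (filled) and 3 further mitochondrial protein-coding genes (open), in WT (blue) and KO (red). The 3 genes of the 10 above 99% lie between 1646 and 2886 per kb, and the other 7 between 245918 and 2840550.

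None of the 8 nuclear copies in the table, 7 of them on chromosome 1, was called by limma. DESeq2 called 2 of them, Gm28439 and Gm10222 (adjusted p = 0.0035 and 0.0329), both higher in KO. Of the genes to which it gave an adjusted p, it called 8.22% in that direction. The KO libraries all lay above the WT libraries for the same 2 of the 8, against 15.6% of all genes. The copy of mt-Nd4, Gm28439, was listed at 570.7, 434.2 and 437.2 normalized counts in KO and 330.9, 284.8 and 327.9 in WT replicates 1, 2 and 3. Its groups did not overlap and its difference, 0.60 ± 0.132 (log2, SE; limma, adjusted p = 0.0815), was larger than that of mt-Nd4. Gm10222, the copy of mt-Nd4l, was at 0.73 (limma, adjusted p = 0.127), also with no overlap. The remaining 6 overlapped. The copies of mt-Co2, mt-Co3 and mt-Atp6, Gm28661, Gm28437 and Gm10925, differed by -0.082, -0.031 and 0.25 (log2), and in the shared stretches they cannot be told apart from the mitochondrial genes by sequence.

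Of the other mitochondrial genes in the table, mt-Nd3, mt-Nd4l and mt-Atp8 encode the remaining subunits. mt-Nd4l, a complex I gene that overlaps the start of mt-Nd4 by 7 bases, was listed at 1714.0, 1271.5 and 988.8 normalized counts in KO and 834.9, 973.0 and 788.8 in WT replicates 1, 2 and 3, a difference of 0.58 ± 0.179 (log2, SE; limma, adjusted p = 0.112) without overlap, and DESeq2 called it (adjusted p = 0.0076). mt-Atp8 was at 0.28 (limma, adjusted p = 0.151), without overlap, and mt-Nd3 at 0.14 (limma, adjusted p = 0.543), with overlap. The KO libraries all lay above the WT libraries for 2 of these 3, against 15.6% of all genes. DESeq2 called 1 of the 3, against 8.22% of the genes to which it gave an adjusted p called higher. For mt-Nd4l and mt-Nd3, 97.97% and 96.98% of the 150-base stretches were found in a nuclear transcript, so their levels are uncertain too. Among 19 tRNA genes, 16 were higher and 3 lower in KO, and 0 passed the adjusted threshold by limma. For 1, mt-Tm, the KO libraries all lay above the WT libraries (0.48 ± 0.136, limma, adjusted p = 0.0988), against 15.6% of all genes. DESeq2 called that 1 (adjusted p = 0.0163), against 8.22% of the genes to which it gave an adjusted p called higher. mt-Tm, the tRNA gene for methionine that lies just before mt-Nd2, was at 1052.0, 1067.9 and 878.9 in KO and 612.6, 869.0 and 683.7 in WT, with KO replicate 3 close above WT replicate 2. mt-Ti, 2 genes before it, went the other way (-0.39, limma, adjusted p = 0.151) with overlap. tRNA genes of 59 to 75 bases are shorter than a read of 150 bases, so their reads can extend into the genes beside them.

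The nuclear partners of the 10 genes were listed slightly lower in KO hearts. Of 80 nuclear genes for subunits of complexes I to V, 75 were lower and 5 higher, with a median difference of -0.21 (log2), against a median of -0.0043 over all genes and 0.13 over the 10 mitochondrial genes. For 52 of the 80, each KO library lay below each WT library, against 14.6% of all genes, and for 0 of them above. That count was 63 without KO replicate 1, against 18.2% of all genes, and 52 without KO replicate 2, against 19.4% of all genes. The median of the 80 was -0.18 without KO replicate 2. By limma, 0 of the 80 passed the adjusted threshold and 49 had an unadjusted p under 0.05, all of them lower in KO, against 10.5% of all genes. edgeR called 0 of all genes, and DESeq2 called 39 of the 80, each lower, against 5.02% of the genes to which it gave an adjusted p.

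By complex, the median was -0.21 for complex I (33 of 36 lower), -0.063 for complex II (3 of 4), -0.18 for complex III (9 of 9), -0.26 for complex IV (14 of 14) and -0.18 for the ATP synthase (16 of 17). Complex II, succinate dehydrogenase, has no mitochondrially encoded subunit, and its catalytic subunit Sdha was at 0.19 (limma, adjusted p = 0.287). The most abundant genes named here had differences of at most 0.25 in size. Cox4i1, a subunit of cytochrome c oxidase, was listed at 65426 ± 1938 in KO and 77937 ± 6338 in WT (SD, n = 3), without overlap and with a difference of -0.25 ± 0.0879 (log2, SE; limma, adjusted p = 0.140). Ndufs1 of complex I was at 0.027, Uqcrc1 and Uqcrc2 of complex III at -0.040 and -0.090, and Atp5b and Atp5a1, the catalytic core of the ATP synthase, at -0.0057 and 0.16, all with overlap. Sdhb and Cox6a2 were at -0.12 and -0.072, with overlap as well.

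Transcript length moved with this contrast. Across 15978 genes, which are not independent, the log2 difference correlated with transcript length (Spearman rho = 0.454), and after a correction for length and GC content, fitted on genes outside the mitochondrial chromosome, the median of the 80 nuclear genes was -0.038. The same correction moved the 10 mitochondrial genes up: all 10 were then higher in KO, with a median of 0.33 and with mt-Nd5 at 0.57 and mt-Nd2 at 0.47 (log2), and 0 passed the adjusted threshold. The medians of the mitochondrial and the nuclear genes were 0.33 apart before the correction and 0.37 after it.

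**Figure D5:**
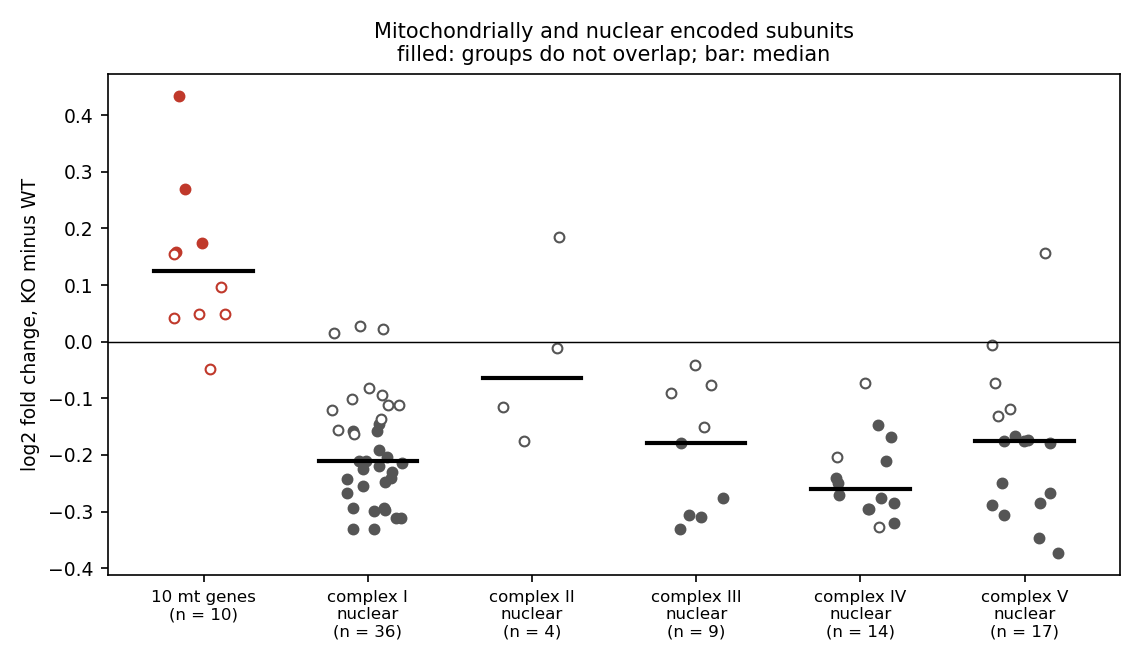
Log2 fold change, KO minus WT (y axis), of the 10 mitochondrial genes (red) and of the nuclear genes for subunits of complexes I to V (grey), with filled points where the groups do not overlap and a bar at the median. The bar is at 0.13 for the mitochondrial genes and between -0.26 and -0.063 for the nuclear lists.

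Genes that act on the mitochondrial genome were examined next. Of the genes to which it gave an adjusted p, DESeq2 called 8.22% higher and 5.02% lower in KO. Of all genes tested, 15.6% were higher and 14.6% lower in KO without overlap. In the list for mitochondrial transcription, 0 of 10 passed the adjusted threshold by limma and 0 by DESeq2, and the median was -0.065 (log2). Polrmt, the mitochondrial RNA polymerase, differed by 0.028, its activator Tfam by -0.067, the initiation factor Tfb2m by 0.089 and the elongation factor Tefm by -0.079, all with overlap. The list for RNA processing and stability (0 of 21 passed by limma, 2 lower by DESeq2, median 0.018) holds Lrpprc and Slirp, whose proteins form a complex that stabilises mitochondrial mRNAs. Slirp was listed at 753.3, 748.4 and 846.9 in KO and 1001.9, 891.9 and 961.0 in WT, lower in each KO library (-0.28 ± 0.0849, limma, adjusted p = 0.108), while Lrpprc was at 0.19 (limma, adjusted p = 0.199) with overlap. Of the 21 genes on that list, 4 were lower and 3 higher in KO without overlap. The 2 that DESeq2 called were Hsd17b10 and Rexo2 (adjusted p = 0.0359 and 0.0494), named after their values were seen. DNA maintenance genes (0 of 12 by limma, 1 higher by DESeq2, Lig3, adjusted p = 0.0232, also named afterwards) had a median of -0.064.

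Regulators of mitochondrial biogenesis (0 of 11 passed by limma, 2 higher by DESeq2) had a median of 0.094. DESeq2 called 8.22% of the genes to which it gave an adjusted p in that direction. The KO libraries all lay above the WT libraries for 3 of the 11, against 15.6% of all genes. The nuclear receptors Esrrg and Ppara were the 2 that DESeq2 called, and are likewise named after their values were seen. Ppargc1a, the coactivator that drives the formation of mitochondria, was listed at 4612.9, 3357.6 and 3127.9 in KO and 3046.6, 2931.4 and 2816.1 in WT replicates 1, 2 and 3, without overlap and with KO replicate 1 far above the rest (0.32 ± 0.131, limma, adjusted p = 0.192). Its relative Ppargc1b was at 0.25 and its partner receptor Esrra at -0.11 (log2), both with overlap.

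Over the 6 libraries, the genes whose log2 level followed the mean log2 level of the 10 most closely, among 11887 nuclear genes with a mean of at least 100, were Zc3h11a (Pearson r = 0.991), Mturn (0.990), Tsc22d2 (0.990), Atxn7 (0.989) and Arl5b (0.986). The lowest were Slc35b1 (-0.990), Gmppa (-0.990) and Spsb2 (-0.985). With 6 points, of which KO replicate 1 is the highest for 8 of the 10 genes, values of this size are a description only.

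The sums of 11 lists of cell type markers were compared between the groups. The summed cardiomyocyte markers ranged from 2773240 to 3096700 normalized counts in KO and from 2483850 to 2584690 in WT, without overlap, and KO replicate 1 was again the highest. Of the 8 genes on that list, 4 were higher and 4 lower, with 2 of the higher and 3 of the lower without overlap. Over all single genes, 15.6% were higher and 14.6% lower in KO without overlap. The endothelial sums also did not overlap (36632 to 39631 in KO, 33833 to 36179 in WT). Of the 5 endothelial genes, 4 were higher, 1 of them without overlap, and 1 was lower. The sums of the other 9 lists overlapped. Among these, atrial markers ranged from 15430 to 88185 in KO and 24703 to 109119 in WT, erythroid markers from 29390 to 133453 and 52272 to 116933, and fibroblast markers from 83025 to 99158 and 85084 to 90521. Adipocyte markers ranged from 1043 to 7078 and 2701 to 6335, macrophage markers from 4744 to 5209 and 5152 to 5559, and smooth muscle markers from 20074 to 23306 and 14713 to 27007. Lymphocyte markers reached at most 440.7, skeletal muscle markers at most 928.3, in KO replicate 2, and RNAs kept in the nucleus ranged from 45582 to 55634 and 51649 to 61682. Cd3e, Lep and Myh4 were not in the table analysed. The part of these markers in the results was not tested.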

How the data were processed

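Total RNA from 6 hearts was sequenced as paired reads of 150 bases. The submitters' processing notes name Trimmomatic 0.36, STAR 2.5.2b, featureCounts, Subread 1.5.2, DESeq2 and GRCm38. The annotation and the treatment of strand and of reads with several matches are not given in the sources used here. Per gene, the deposited table holds a normalized signal: the authors had scaled each library's read counts by 1 size factor. Read numbers were recovered from the value of 1 read, and 100% of values came out whole (within 0.01). The test of genotype was limma 3.58.1, run in R 4.3.3, with log2(normalized count + 1) as the response, a scale that understates changes of low genes, with a variance trend, two-sided, over 16016 genes with a mean of at least 10 and with Benjamini-Hochberg adjustment at 0.05. Recovered reads were also tested with DESeq2 1.42.0 and edgeR 4.0.16. Further alternatives were other pseudocounts, filters and scalings, sample weights and each library left out. The script was tested on simulated data. Genes named are the 10, other mitochondrial genes, nuclear copies, Slc4a4, 9 regulators, the 2 most abundant genes of each nuclear list, and the genes most and least like the 10. A result under this rule is left out here. Members and the 9 pathway and 11 marker lists were chosen with earlier results of these data known. Nuclear copies were searched in GENCODE M21 transcripts in place of a genome, a choice made after seeing the files. The labels number 3 mice per group. The p-values rest on the spread between these samples and, through limma's variance trend, on that of genes of like abundance. With the trend the SE was 0.164, 0.190 and 0.302 for mt-Nd1, mt-Cytb and mt-Co1. Without it the SE of these genes was 0.0845, 0.0927 and 0.114. It was then also smaller for mt-Nd2, mt-Nd4, mt-Nd5 and mt-Nd6, and slightly larger for mt-Co2, mt-Co3 and mt-Atp6.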

Additional observations from a re-analysis of the deposited data

How the results depend on the processing

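Limma called 0 of the 10 genes in each alternative, and DESeq2 called 2. Over all genes the count was 0 by limma and edgeR and 1587 by DESeq2, and leaving out each library in turn gave 0 to 3, with 3 without KO replicate 2 (Slc4a4, Nppb and Doc2g, the last pair named after their values were seen). Differences of mt-Nd2, mt-Nd4, mt-Nd5, mt-Nd6, mt-Cytb and mt-Atp6 stayed at or above 0 in each of 19 alternatives. Rescaling to the same total put mt-Nd1, mt-Co1 and mt-Co3 at -0.031, -0.024 and -0.025 (log2), and rescaling outside the mitochondrial chromosome at -0.018, -0.011 and -0.012. Quantile normalization lowered mt-Nd5 from 0.43 to 0.12 and mt-Nd2 from 0.27 to 0.094, put mt-Nd1 at -0.27 and set mt-Co1 and mt-Cytb, which hold the same ranks in each library, to 0. Sample weights put mt-Co1 at -0.011, and the length and GC correction put mt-Co2 at 0.16. Leaving out single libraries gave -0.020 to 0.10 for mt-Nd1, -0.058 to 0.11 for mt-Co1, -0.018 to 0.11 for mt-Co3, 0.012 to 0.18 for mt-Nd6, -0.10 to -0.0044 for mt-Co2, 0.077 to 0.21 for mt-Cytb and 0.084 to 0.21 for mt-Atp6. Over the 5 genes with no shared stretch, the mt-Nd5 share differed by 3.65 points in place of 2.22. Medians for nuclear complexes I, II, III, IV and ATP synthase became -0.030, 0.025, -0.013, -0.076 and -0.075 after the length and GC correction, and those of complexes I and III and ATP synthase -0.28, -0.25 and -0.25 at the same total, which moved the median of all genes to -0.077. At that setting transcription, RNA processing, DNA maintenance and biogenesis lists were at -0.14, -0.055, -0.14 and 0.021. Quantile normalization gave -0.24 for ATP synthase, -0.088 for DNA maintenance and 0.044 for biogenesis, and the correction 0.013 for transcription. At an unadjusted p under 0.05, limma's count of the 10 was 2 without the variance trend, against 3212 of 16016 genes. After the length and GC correction it was 3 (mt-Nd2, mt-Co3 and mt-Atp6), against 2297 of 15978 genes. It was 1 with a mean of at least 50, at both rescalings, with quantile normalization, with a replicate block and without KO replicate 3. In those settings 3592 to 3924 of all genes were under 0.05, a larger proportion than 1 of 10. In the other limma settings the count of the 10 was 0. With replicate number as a block, limma called 0 genes and 0 of the 10. Same-numbered libraries correlated at 0.227, 0.0720 and -0.0290, and libraries of unlike number at -0.183 to 0.155. These values are centred within groups of 3 libraries, so they cannot decide whether the numbers pair the mice. The cause of these shifts was not tested.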
